A study of Mus musculus with 5 samples.

Results

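Endothelial barcodes without Wnt2, Wnt9b or Rspo3 were picked from droplet sequencing of mouse liver cells, in which a barcode stands for 1 droplet and a unique molecular identifier (UMI) for 1 captured RNA molecule. The depth limits were 1000 UMIs and 500 genes per barcode, with under 30% of UMIs mitochondrial, and 104143 barcodes of the 5 libraries met them. A barcode was counted as endothelial when it held at least 3 of Stab2, Ptprb, Gpr182, Kdr, Egfl7, Clec4g and Oit3 (7 genes), no UMI of the leukocyte gene Ptprc and under 5% of UMIs from albumin (Alb). Of 462 such barcodes, 277 had no UMI of Wnt2, Wnt9b or Rspo3 and are called members here: 23 in the library of postnatal day 14 (P14), 62 in the adult control, and 97, 24 and 71 in the libraries taken 24, 48 and 96 h after partial hepatectomy (PHx), an operation that cuts away liver lobes. All mice were C57BL/6J, the P14 animals unoperated, and those of the last 3 libraries operated at 8 weeks of age. The adult control is labelled adult, and the protocol sentence that gives 8 weeks covers it as well. Liver cells were released by perfusion in every group and put through dead-cell removal, and library totals ran from 80927744 to 136110607 UMIs. The labels disagree on the adult control, which its title, source and age call a control and the treatment protocol lists among operated animals, and it was treated as the control. Each group was 1 library of an unstated number of mice of unstated sex, so differences between groups have no replicate check and no p-value is given. All 4 comparisons share the adult control, whose description code differs from that of the other libraries and cannot be told apart from its group.

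Liver sinusoids are lined by a fenestrated endothelium that clears waste from blood through scavenger receptors and makes few basement membrane proteins. Endothelial cells near the central vein secrete Wnt2, Wnt9b and the Wnt enhancer Rspo3, which set the pericentral gene program of nearby hepatocytes, whereas those of the midlobular and periportal sinusoid carry little of these signals. After partial hepatectomy the endothelium is known for supplying growth factors to hepatocytes first and for dividing itself later.

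The label was first set against the data. Levels are UMIs of a gene per 1000000 non-mitochondrial UMIs (CPM) over the summed barcodes of a library, and free RNA was read from 40000 low-depth barcodes per library. The share of 17 hepatocyte markers in a barcode was divided by their share in free RNA, so that 1 is the level of those low-depth barcodes. The median of this ratio over the members was 0.245 in P14 and 0.771 in the adult control, and 0.544, 0.394 and 0.57 at 24, 48 and 96 h, and the median depth was 2061, 1747.5, 1555, 2486.5 and 1601 UMIs. The members were therefore a mixture, and in the adult control most had nearly as large a hepatocyte share as the low-depth barcodes. Of the 62 adult members, 12 lay within the ranks used for free RNA, whose median depth there was 1330 UMIs. A further 22 members had over 10000 UMIs and over 15% mitochondrial UMIs: 3 in the adult control, and 12, 6 and 1 at 24, 48 and 96 h. In P14, a barcode of 88962 UMIs held 47.6% of all member UMIs and carried 223 UMIs of 23 mitosis genes, and one of 53382 UMIs held 28.6% and carried 1128 UMIs of 7 platelet genes. At 48 h, 1 member of 8614 UMIs carried 7687 UMIs of erythroid genes. No 2 libraries shared a member barcode.

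Endothelial-rich members were therefore set apart after these values were seen, as barcodes with at least 0.2% of UMIs in the 7 rule genes and a hepatocyte ratio under 0.5. There were 117 of them: 19 in P14 and 15 in the adult control, and 46, 12 and 25 at 24, 48 and 96 h. Their summed depth was 41875, 61747, 98239, 25048 and 84065 UMIs, so that 1 UMI stood for 27.1, 16.9, 11.1, 45.8 and 13 CPM. Their median depth was 2061, 4028, 1669, 1716.5 and 2097 UMIs. The median mitochondrial share was 8.72%, 3.99%, 8.39%, 10.8% and 8.39%, and that of the 7 rule genes 0.881%, 1.38%, 0.693%, 1.02% and 0.594%. The adult control thus had the deepest barcodes, the fewest mitochondrial UMIs and the most marker UMIs. The part of this in the differences was not tested. The 48 h library is the thinnest, and its 2 deepest barcodes held 31.3% of the endothelial-rich UMIs, as against 18.9% in the adult control and 31% at 96 h. The 96 h pair, of 10019 and 16065 UMIs, and 1 barcode of 9275 UMIs at 24 h held at least 5 UMIs each of Vwf and Igfbp5, and 24 h and 96 h results are therefore also given without these 3 vessel-gene barcodes, a choice made after seeing the data. Of the listed and named genes past the limits in a comparison, 41 of 67 in P14 and 58 of 88, 34 of 60 and 50 of 77 at 24, 48 and 96 h still passed without the single barcode that held most of the gene's UMIs. Hepatocyte markers in the 117 barcodes stood at 19.3% to 28.2% of their free-RNA level. Values below are for the endothelial-rich members unless all members are named, in the order P14, adult control, 24, 48 and 96 h where 5 are given.

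**Figure D1:**
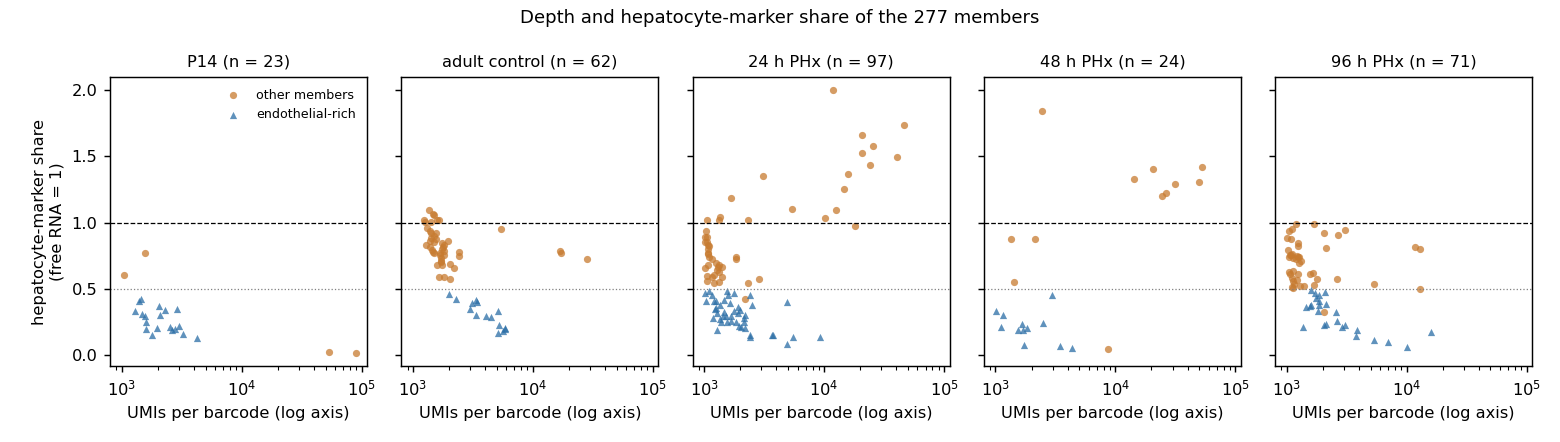
UMIs per barcode (log axis) against the hepatocyte-marker share relative to free RNA, 1 point per member, by library. Blue triangles are the 117 endothelial-rich members and orange circles the others, the dashed line marks free RNA (1) and the dotted line the limit of 0.5. Adult control members crowd near 1 at low depth, and deep barcodes above 1 are most frequent at 24 h and 48 h.

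Members just inside and just outside the marker threshold were set side by side. Over all libraries 101 members had exactly 3 of the 7 rule genes, and 291 further barcodes met every other limit with exactly 2. The median hepatocyte ratio at exactly 3 and at exactly 2 markers was 0.314 against 0.863 in P14 and 0.859 against 0.945 for adult control barcodes, and 0.74 against 0.912, 1.21 against 1.16 and 0.737 against 0.842 at 24, 48 and 96 h. The P14 medians rest on 4 barcodes each. Those with exactly 3 markers there include the barcodes of 53382 and 88962 UMIs rich in platelet and mitosis genes, and 0 were endothelial-rich. Among barcodes without a Wnt UMI, the albumin limit removed 17, of which 15 were in P14. In the adult control 14 of the 15 endothelial-rich members carried all 7 rule genes, and the shallowest had 2003 UMIs.

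The share of barcodes with a Wnt UMI differed with depth. Among all endothelial-rich barcodes, with or without these signals, 45.7% had a UMI of Wnt2, Wnt9b or Rspo3 in P14 and 34.8% in the adult control, and 59.3%, 76.5% and 44.4% did at 24, 48 and 96 h. At 24 h the share was 31.1% between 1000 and 1999 UMIs, 64.5% between 2000 and 3999 and 89.2% from 4000 UMIs up. The same bins gave 60%, 70% and 95.2% at 48 h, and 8.33%, 41.2% and 75% at 96 h. At an equal depth of 1000 UMIs the expected shares were 23.8%, 18.4%, 39.9%, 54.6% and 22.5%. The share was larger in the deepest bin than in the shallower ones in all 5 libraries, though the adult control had 0 barcodes between 1000 and 1999 UMIs. Wnt2 in free RNA stood at 0.993, 0.926, 5.47, 5.3 and 1.2 CPM.

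All 5 given markers were present in every library, far above free RNA, though by the choice of members their levels are a description. Stab2, the hyaluronan scavenger receptor, stood at 1760.3 CPM in P14 (65 UMIs) and 1031 in the adult control (61), and 909.5 (82), 1831 (40) and 417 (32) at 24, 48 and 96 h, against at most 4.74 CPM in free RNA. Clec4g, a sinusoidal lectin, stood at 1299.9 CPM in P14 (48 UMIs) and 3769.6 in the adult control (223), and 1808 (163), 3479 (76) and 1094 (84) at 24, 48 and 96 h. Stab2 was highest at 48 h and in P14, and Clec4g was highest in the adult control and at 48 h. Gpr182, an atypical chemokine receptor, ran from 1224 CPM at 96 h to 2468 in the adult control, and the phosphatase Ptprb from 1979.7 to 2941 in the same libraries. Dnase1l3, a secreted nuclease that the rule did not use, stood at 1273 CPM in P14 (47 UMIs) and 2181 in the adult control (129), and 987 (89), 1694 (37) and 1055 (81) at 24, 48 and 96 h. The 14 sinusoidal genes listed beyond the rule genes summed to 12159.5, 13320.5, 10526, 16113 and 9312 CPM, against 44.7 to 123 in free RNA. The 17 pan-endothelial genes summed to 6797 to 8925 CPM, against 44.2 to 93.1 in free RNA. Lymphocyte markers were at 0 CPM in 4 of 5 libraries and 33.8 CPM in the adult control. The neutrophil genes S100a8 and S100a9 were higher at 24 h than in the adult control, though under 2 times free RNA. Without the barcode holding most of its UMIs S100a9 still passed, at least 2.5-fold higher, and S100a8 did not. Kupffer cell and macrophage markers summed to 244, 50.7, 266, 412 and 52.1 CPM against 11.9 to 99.4 in free RNA, with 7 to 10 of 12 at 0, among them Clec4f, Vsig4 and Timd4 in every library. At 24 h, 10 and 9 of their 24 UMIs were of C1qa and C1qb, and their part in the results was not tested.

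**Figure D2:**
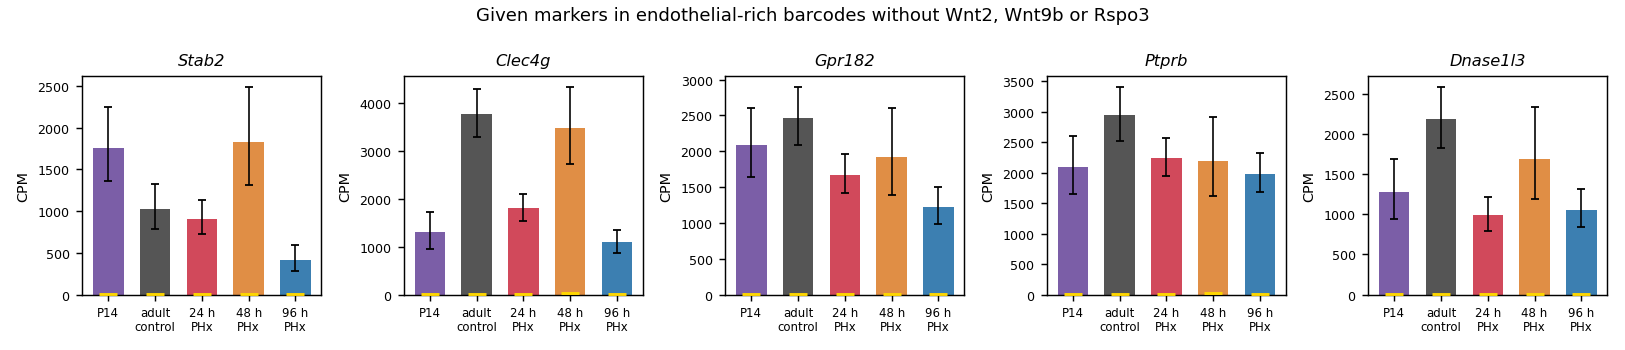
Levels in CPM of the 5 given markers in the endothelial-rich members of each library. Bars are summed levels, error bars 95% counting intervals, and yellow dashes free RNA. Clec4g is 3769.6 CPM in the adult control and 1094 at 96 h, with the vessel-gene pair included, while free RNA is at most 30.5 CPM for all 5 genes.

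Members without a Wnt UMI were next set beside the endothelial-rich barcodes with one, as a description, since the 2 sets were split by a readout and those with a UMI were deeper. The sum of the 12 pericentral genes apart from the 3 Wnt-pathway signals was lower without a Wnt UMI in every library, at ratios of 0.322 (0.246 to 0.414) in P14 and 0.283 (0.208 to 0.382) in the adult control, then 0.527 (0.472 to 0.587), 0.357 (0.258 to 0.482) and 0.487 (0.409 to 0.579) at 24, 48 and 96 h. A few genes carry these sums: in P14 Fabp4 gave 42 of the 65 UMIs without and 629 of the 841 with a Wnt UMI. Intervals in brackets here and below are 95% exact intervals and cover counting error only. The 10 periportal genes were higher without a Wnt UMI in the adult control, at 2.33 (1.78 to 3.08), and at 96 h, at 2.3 (1.89 to 2.81). In P14, at 24 h and at 48 h the periportal ratios were 1.15 (0.816 to 1.59), 1.15 (0.977 to 1.34) and 1.15 (0.814 to 1.6), with intervals that include 1. Without the vessel-gene barcodes the 96 h periportal ratio was 1.36 (1.06 to 1.74), over 1.5 times smaller, and the 24 h one 0.911 (0.758 to 1.09), while the pericentral ones became 0.457 (0.404 to 0.515) and 0.45 (0.364 to 0.552) at 24 and 96 h. The sinusoidal list stood at 1.59 (1.42 to 1.77) of its level with a Wnt UMI in P14 and 0.875 (0.789 to 0.971) in the adult control, then 0.832 (0.773 to 0.894), 0.858 (0.768 to 0.957) and 0.608 (0.556 to 0.665) at 24, 48 and 96 h, the last 0.842 (0.769 to 0.922) without the pair. Differences between the 2 sets are given as log2 ratios of CPM + 10. Among pericentral genes, the receptor tyrosine kinase Kit differed by -1.18, -3.30, -0.54, -0.01 and -2.14 (5, 3, 65, 22 and 11 UMIs without and 49, 26, 295, 219 and 69 with a Wnt UMI). The transcription factor Lhx6 had 0, 0, 3, 0 and 0 UMIs without and 23, 1, 101, 67 and 10 with, and the adhesion receptor Selp 0, 0, 0, 0 and 1 UMIs without and 8, 5, 20, 5 and 3 with, so that the adult difference of Lhx6 rests on 1 UMI and those of Selp on at most 20. Cdh13, Fabp4 and Gas6 were also lower in 5 of 5 libraries, the smallest difference being -0.17 for Fabp4 at 24 h, as was Ramp3 on at most 15 UMIs a set, and the anticoagulant receptor Thbd was lower in 4 of 5. Complement factor B (Cfb) and the protocadherin Pcdhgc5 had at most 4 UMIs in any set, and no direction is read from them. Efnb2, an arterial ephrin, was higher without a Wnt UMI in 5 of 5 libraries by 0.83, 1.57, 0.84, 0.85 and 1.20, on 5, 13, 3, 2 and 18 UMIs without and 11, 3, 4, 10 and 10 with, as was the scavenger receptor Msr1 by 0.98, 2.27, 1.68, 1.43 and 0.47, on 7, 28, 34, 8 and 27 UMIs without and 14, 4, 31, 28 and 26 with. Gja4, a connexin of arterial endothelium, was lower in 4 of 5, Ltbp4, Ntn4 and Sox17 were each higher in 4 of 5 and Efnb1 was lower in 3 of 5, while the Notch ligands Dll4 and Jag1 had 0 to 9 and 0 to 25 UMIs a set. These directions of single genes include the vessel-gene barcodes at 24 and 96 h and are not given without them. Pan-endothelial genes were at 0.863 (0.75 to 0.989), 0.882 (0.776 to 1), 0.811 (0.744 to 0.882), 0.657 (0.554 to 0.774) and 0.741 (0.665 to 0.825) of the level with a Wnt UMI, all at or below 0.882.

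**Figure D3:**
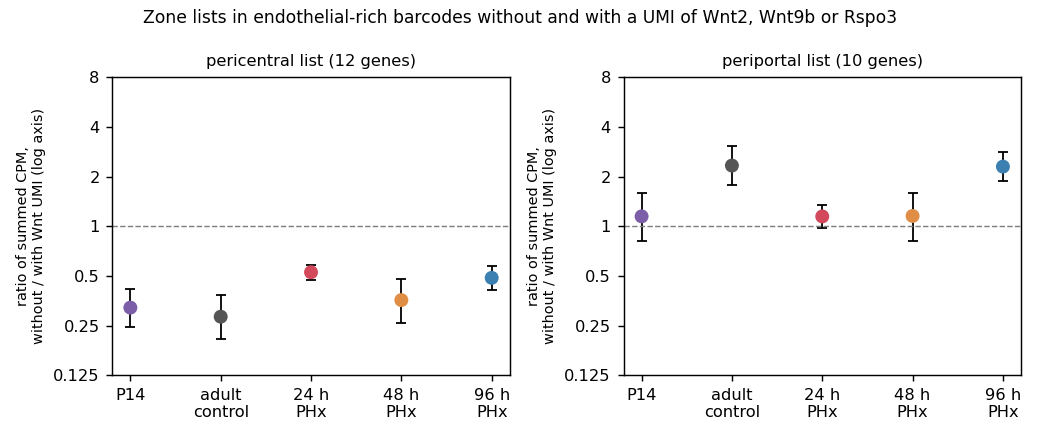
Ratio of summed CPM (log axis) in endothelial-rich barcodes without over with a UMI of Wnt2, Wnt9b or Rspo3, by library, for 12 pericentral genes (left) and 10 periportal genes (right). Points are ratios, bars 95% counting intervals, and the dashed line a ratio of 1. The pericentral ratios lie between 0.283 and 0.527, and the periportal ones are above 2 in the adult control and at 96 h, the latter 1.36 without the 2 vessel-gene barcodes.

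At 24 h after PHx, members without a Wnt UMI had more thrombomodulin (Thbd), Kit, Ets1 and Notch1 RNA than those of the adult control and less Igfbp7, Efnb2 and Ltbp4. Thbd, a thrombin receptor of the vessel surface that is induced by flow, stood at 108 CPM in P14 (4 UMIs) and 169 in the adult control (10), and 1575 (142), 137 (3) and 299.6 (23) at 24, 48 and 96 h. Its level was highest at 24 h, where 35 of 46 members carried it, at a ratio to the adult control of 9.32 (4.92 to 19.9). Kit, the stem cell factor receptor, stood at 135 CPM in P14 (5 UMIs) and 50.7 in the adult control (3), and 721 (65), 1007 (22) and 143 (11) at 24, 48 and 96 h, and its ratios to the adult control were 14.2 (4.65 to 70.7) and 19.9 (5.97 to 104) at 24 and 48 h. For both genes the free-RNA level was at most 12.4 CPM in every library. Igfbp7, a secreted insulin-like growth factor binding protein of the vessel wall, stood at 2654 CPM in P14 (98 UMIs) and 4446 in the adult control (263), and 1131 (102), 1190.2 (26) and 1419.7 (109) at 24, 48 and 96 h, with a ratio of 0.254 (0.2 to 0.321) at 24 h. Igfbp7 was thus highest in the adult control, and the counting intervals of the 3 libraries after PHx overlapped one another and lay below that of P14. Endothelial-rich barcodes with a Wnt UMI differed in the same direction between the adult control and 24 h. Thbd stood at 722 and 4257 CPM there, Kit at 586 and 1051, Igfbp7 at 3405 and 1204 and Ltbp4 at 631 and 150. Efnb2 stood at 67.6 and 14.3 on 3 and 4 UMIs. For these genes the difference was not limited to members without a Wnt UMI. Among endothelial-rich barcodes from 4000 UMIs up, 50% had a Wnt UMI in the adult control, and 89.2% and 95.2% at 24 and 48 h. The median depth of the members was 4028, 1669 and 1716.5 UMIs in these libraries. Members at 24 and 48 h can thus include more cells whose Wnt RNA was missed. The part of this in the differences was not tested.

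Over all 97 members, of 4139 genes that reached 50 CPM in at least 1 of the libraries compared, 335 were at least 2-fold higher at 24 h than in the adult control (8.09%) and 466 were at least 2-fold lower (11.3%), on the scale of log2(CPM + 10). Over the 46 endothelial-rich members, 249 of 5575 genes were at least 2-fold higher with a counting interval that excluded 1 (4.47%), and 292 were lower (5.24%). The median of all tested genes over all members was -0.11, and scaling by the trimmed mean of M values (TMM) moved it to 0.11 and the share of higher among the called genes from 41.8% to 61.4%. Counts of listed genes below are for endothelial-rich members and are read against 4.47% and 5.24%. Over all members 3 of 12 sinusoidal genes were lower and none higher (median -0.44), and 2 of 15 pan-endothelial genes were lower. The 51 members that were not endothelial-rich held 319880 of the 418119 UMIs in that sum, with hepatocyte markers at 1.36 times their free-RNA share.

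Of 13 sinusoidal genes tested at 24 h, none was higher and 2 were lower, with a list median of -0.22 on the log2 scale against -0.02 for all genes. Those were the inhibitory Fc receptor Fcgr2b, at 1154 against 2502 CPM (ratio 0.461, 0.355 to 0.597), and Dnase1l3 (ratio 0.453, 0.342 to 0.598). Without the vessel-gene barcode neither passed, at 0.508 (0.391 to 0.657) and 0.503 (0.38 to 0.664), Plxnc1 was higher at 1467 against 676 CPM, and the sinusoidal median was -0.23. Of 14 genes of capillary, arterial and portal vessels, 6 were higher and 2 lower (median 0.32). The stem-cell antigen Ly6a had 187 UMIs in 16 members, 71.1% of them in 1 barcode, against 36 UMIs in 10 members of the adult control (ratio 3.41, 2.38 to 5.01). Von Willebrand factor (Vwf) had 20 UMIs in 4 members against 0 in the adult control, at least 4.37-fold higher, and 17 of these UMIs lay in 1 barcode of 9275 UMIs. That barcode also held all 25 UMIs of Igfbp5 and 133 of the Ly6a UMIs. Vwf and Ly6c1, both among the 6 higher genes, had no UMI in the adult control. They were tested only through the 24 h library and could come out only higher, so the count of 6 is a description. Gja4 was spread more widely, with 43 UMIs in 21 members against 8 in 5 (ratio 3.53, 1.64 to 8.69), as was the tetraspanin Cd9 (42 UMIs in 18 members, ratio 6.89, 2.5 to 26.5). Efnb2 and Ltbp4 were lower, at ratios of 0.151 (0.0277 to 0.551) and 0.295 (0.186 to 0.457). Without that barcode 3 of 12 vessel genes were higher, the fenestral protein Plvap, Gja4 (3.92, 1.82 to 9.65) and Cd9 (5.47, 1.93 to 21.4), and 4 were lower, Cd34, Efnb2, Ednrb and Ltbp4, with a list median of -0.51, beside 4.55% higher and 4.32% lower over all genes.

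Of 5 pericentral genes tested at 24 h, Kit, Thbd and the fatty acid binding protein Fabp4 were higher and none was lower. Fabp4 stood at 1741 against 710.0 CPM (ratio 2.45, 1.74 to 3.54), with 74.8 CPM in free RNA, and had a ratio of 1.56 (1.07 to 2.31), under the limits, without the vessel-gene barcode. Of 10 periportal genes, Gja4 was higher, and Efnb2, Ltbp4 and the netrin Ntn4 (ratio 0.246, 0.142 to 0.413) were lower. Of 12 flow-responsive genes 3 were higher: Thbd, the transcription factor Klf4 (17 against 3 UMIs, ratio 3.72, 1.08 to 19.8) and the metalloprotease Adam15 (30 against 3, ratio 6.56, 2.04 to 33.6). Klf4 did not pass without the vessel-gene barcode (ratio 1.7, 0.388 to 10.2), and Thbd and Adam15 did, at 9.12 (4.8 to 19.5) and 6.08 (1.85 to 31.4). The related factor Klf2 stood at 998 against 659 CPM (ratio 1.51, 1.03 to 2.27), under the 2-fold limit.

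Among 14 angiocrine factors, the signals through which endothelium acts on neighbouring cells, 4 were higher and 1 lower at 24 h. Hepatocyte growth factor (Hgf) stood at 189.6 CPM in P14 (7 UMIs) and 84.5 in the adult control (5), and 344 (31), 366 (8) and 143 (11) at 24, 48 and 96 h, with ratios of 4.07 (1.57 to 13.4) and 4.33 (1.25 to 16.8) at 24 and 48 h, with 1.77 CPM in free RNA at 24 h. Without the barcode holding most of its UMIs the Hgf ratio was 3.74 at 24 h, still past the limits, and 2.44 on 4 UMIs at 48 h, not past them. Hgf is also a stellate cell gene: the stellate list summed to 410.4 CPM at 24 h, with 31 of its 37 UMIs from Hgf and the rest from other listed genes. Lrat, Reln and Dcn were among those at 0, and the part of stellate RNA in the Hgf level was not tested. Inhbb, an activin subunit, had 16 UMIs in 15 members against 3 (ratio 3.5, 1 to 18.7). Inhbb did not pass without 1 barcode either (3.14), and Igfbp5 and endothelin 1 (Edn1) were the other 2, from 1 and 2 barcodes, and neither passed without the vessel-gene barcode. Igfbp5 and Edn1 had no UMI in the adult control and could come out only higher, so the count of 4 is a description. Igfbp7 was the gene that was lower. Of 14 basement membrane and matrix genes, 4 were higher and 3 lower. Collagen IV chains Col4a1 and Col4a2, structural parts of the basement membrane, had ratios of 2.52 (1.63 to 4.05) and 2.07 (1.09 to 4.21), and the proteases Mmp14 and Adamts1 3.66 (1.62 to 9.69) and 5.53 (2.52 to 14.4), and Col4a2 alone of the 4 did not pass without the vessel-gene barcode (1.8, 0.916 to 3.73). The laminin chain Lama4, at 55.5 against 304 CPM (ratio 0.182, 0.0529 to 0.509), Lamb2 and Col18a1 were lower, the last 2 not without the adult barcode holding most of their UMIs. In the Notch list 1 of 7 genes was higher, the receptor Notch1, at 135 CPM in P14 (5 UMIs) and 203 in the adult control (12), and 543 (49), 595 (13) and 586 (45) at 24, 48 and 96 h. Its ratios were 2.68 (1.4 to 5.53), 2.93 (1.23 to 7.03) and 2.89 (1.5 to 6) at 24 h, 48 h and 96 h, and P14 was below the adult control. Among 21 endothelial transcription factors, Ets1 (ratio 3.02, 1.95 to 4.86) and the venous factor Nr2f2 (ratio 2.14, 1.51 to 3.08) were higher, and Mecom was lower with 4 against 11 UMIs (ratio 0.239, 0.0554 to 0.805), a call also lost without 1 adult barcode. Ets1 stood at 596 CPM in P14 and 423 in the adult control, and 1276, 1007 and 989.9 at 24, 48 and 96 h, above the adult control in all 4 other libraries and past 2-fold in the 3 after PHx, though at 1.99 at 48 h without 1 barcode.

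The 10 genes furthest above the adult control over all 97 members at 24 h were Igfbp5, Thbd, Kit, Armcx4, Apoa4, Vwf, Tff3, B3galt1, Slco3a1 and Ccdc82. Of these, Armcx4 (52 UMIs in 22 endothelial-rich members, ratio 6.82, 2.74 to 21.9), the transporter Slco3a1 (19 UMIs in 11) and Ccdc82 (16 in 10) were carried by endothelial-rich members. Apoa4, an apolipoprotein made by hepatocytes, had 37 UMIs in all members but 2 in the endothelial-rich ones, and for Tff3 the counts were 31 and 4. The 10 furthest below were Serpina3f, Chst7, Slc43a2, Plk2, Clec14a, Thap11, Lama4, 2210016L21Rik, Dio1 and Efnb2. The endothelial lectin Clec14a stood at 233 against 929.7 CPM (ratio 0.251, 0.144 to 0.421), the kinase Plk2 at 44.4 against 321 (ratio 0.138, 0.0342 to 0.416) and the amino acid transporter Slc43a2 at 111 against 456 (ratio 0.243, 0.105 to 0.518). Serpina3f, a serine protease inhibitor, had 0 UMIs at 24 h and 12 in the adult control, at least 6.1-fold lower.

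Genes of the hepatocyte acute phase and of metal stress also differed at 24 h, at levels that free RNA holds. The acute phase list summed to 14042 CPM at 24 h and 2789 in the adult control, beside 48341 and 10348 in free RNA, and none of its 7 higher genes reached 2 times free RNA. Metallothionein 1 (Mt1) stood at 6477 CPM in the members and 22047 in free RNA. In the metallothionein and stress list 5 of 11 genes were higher, and of these the glucocorticoid-induced kinase Sgk1 stood above free RNA (1032 against 36.3 CPM), with a ratio to the adult control of 2.35 (1.51 to 3.78) after 24 h, and 4.48 (2.69 to 7.59) after 48 h. The part of free RNA in the other 4 was not tested.

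At 48 h after PHx, the 12 endothelial-rich members had more Bmp2, Kit and Adam15 RNA than the adult control and little Ntn4. Bmp2, the bone morphogenetic protein by which sinusoidal cells induce hepcidin in hepatocytes, stood at 487 CPM in P14 (18 UMIs) and 913 in the adult control (54), and 1098 (99), 2609 (57) and 651 (50) at 24, 48 and 96 h. It was highest at 48 h, where 12 of 12 members carried it, at a ratio of 2.86 (1.94 to 4.23), and the other libraries lay between 487 and 1098 CPM. Without the 1 barcode holding most of its UMIs the Bmp2 ratio was 2.04, still past the limits. Endothelial-rich barcodes with a Wnt UMI held 1714 CPM of Bmp2 in the adult control and 2922 at 48 h. Klf2, a transcription factor induced by shear stress, stood at 352 CPM in P14 (13 UMIs) and 659 in the adult control (39), and 998 (90), 1694 (37) and 599 (46) at 24, 48 and 96 h, with a ratio of 2.57 (1.59 to 4.14) at 48 h that was 1.62, under the limits, without the 1 barcode holding most of its UMIs, and Notch1 at 48 h did not pass in that way either (2.54). The endothelin receptor Ednrb had 0 UMIs at 48 h and 42 in 8 adult members, at least 5.17-fold lower, though 52.4% of the adult UMIs lay in 1 barcode, and Ntn4 had 1 against 56 UMIs (ratio 0.0484, 0.0012 to 0.281). Ednrb was carried by few members in the other libraries too, 6 in P14, 8 at 24 h and 5 at 96 h.

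Over all 24 members at 48 h, 252 of 3952 genes were at least 2-fold higher (6.38%) and 900 were lower (22.8%). The median of all tested genes was -0.40 there, 0.10 after TMM scaling, which moved the share of higher among called genes from 21.9% to 54.9%. Over the endothelial-rich members 230 of 5526 genes were higher (4.16%) and 127 lower (2.3%). All members and endothelial-rich members differed in endothelial genes at 48 h: 9 of 12 sinusoidal and 13 of 15 pan-endothelial genes were lower over all members, and none of either list was higher. The 12 members that were not endothelial-rich held 235688 of the 260736 UMIs in that sum, with hepatocyte markers at 1.27 times their free-RNA share. Over endothelial-rich members 1 of 16 pan-endothelial genes, Cldn5, was lower, and was at 0.517, not past the limits, without 1 adult barcode. Of 12 sinusoidal genes, Bmp2 and the semaphorin receptor Plxnc1 (ratio 2.03, 1.22 to 3.34) were higher, the latter not past the limits without 1 barcode, and none was lower (median 0.25 against -0.12 for all genes). Of 12 vessel genes, Gja4 was higher (ratio 5.08, 2.02 to 13.8), and Ly6a (3 against 36 UMIs, ratio 0.226, 0.0445 to 0.714), Ednrb and Ltbp4 (ratio 0.196, 0.0618 to 0.48) were lower. Of 9 periportal genes, Gja4 was higher, and Ltbp4 and Ntn4 were lower (median -1.18), and of 4 pericentral genes Kit was higher. Among flow-responsive genes Klf2, the cyclooxygenase Ptgs1 (ratio 3.87, 1.33 to 12) and Adam15 (ratio 9.93, 2.62 to 55.4) were higher, but Klf2 and Ptgs1 (3.02) did not pass without 1 barcode each. Among angiocrine factors Hgf and Bmp2 were higher and Igfbp7 lower (ratio 0.268, 0.172 to 0.401). Of 13 matrix genes, Col4a1 (ratio 2.19, 1.17 to 4.04), perlecan (Hspg2, 2.03, 1.1 to 3.71), Mmp14 (3.48, 1.15 to 11) and Adamts1 (3.48, 1.15 to 11) were higher, and the protease inhibitor Timp3 was lower (0.405, 0.207 to 0.729). None of these 4 higher matrix genes passed without the barcode holding most of its UMIs, at 1.92, 1.63, 2.86 and 2.22. The G1 cyclin Ccnd1 stood at 595 against 169 CPM (ratio 3.52, 1.43 to 8.97), with 134 CPM in free RNA, and a ratio of 2.49, not past the limits, without 1 barcode.

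The genes furthest above the adult control over all 24 members at 48 h came largely from barcodes outside the endothelial-rich ones. In order they were Hba-a2, Orm2, Hba-a1, Hbb-bs, Hamp, Igfbp1, Top2a, Rrm1, Hpx and Ncapg2. The haemoglobin genes Hba-a2, Hba-a1 and Hbb-bs had 990, 1325 and 5147 UMIs, of which endothelial-rich members held 2, 4 and 17. The hepatocyte genes Orm2, Hamp, Igfbp1 and Hpx had 2, 4, 0 and 22 UMIs in endothelial-rich members out of 462, 451, 48 and 2383. The cycling genes Top2a, Rrm1 and Ncapg2 had 2, 5 and 1 of 19, 23 and 12 UMIs there. The 10 furthest below were Ntn4, Ednrb, H2-T23, Igfbp7, Ltbp4, Cd84, Serpina3g, Ly6a, Npdc1 and Il1a. The nonclassical class I molecule H2-T23 had 1 against 40 UMIs in endothelial-rich members (ratio 0.0677, 0.00167 to 0.399), and Serpina3g had 0 against 21. Near-identical copies include Hba-a1 and Hba-a2, Serpina3f and Serpina3g, and class I histocompatibility genes. Their reads may not be assigned to a single copy by the counting, so their values are uncertain.

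At 96 h after PHx, members without a Wnt UMI had more Notch1, Ets1 and Cavin1 RNA than the adult control, less Igfbp7 and Ltbp4, and a pair of barcodes rich in Vwf, Igfbp5 and Edn1. Clec4g stood at 1094 against 3769.6 CPM and Stab2 at 417 against 1031, both rule genes and given without a count. These 96 h levels include the pair, which held 31% of the endothelial-rich UMIs. Levels of Clec4g and Stab2 without the pair are not given, and its part in the differences was not tested. The pair of vessel-gene barcodes, of 10019 and 16065 UMIs, held 9 and 23 UMIs of Vwf, 69 and 82 of Igfbp5, 9 and 19 of Edn1, 19 and 13 of Fbln2, 28 and 29 of Flrt2 and 15 and 9 of Nrg1. They carried 9 and 10 UMIs of the rule genes Stab2, Clec4g, Oit3 and Gpr182 together. The pair was singled out after its values were seen, as was the 24 h barcode of 9275 UMIs. For Igfbp5 the pair made up all 151 UMIs of the endothelial-rich set, where the adult control had 0 (at least 38.8-fold higher). They also held 16 and 6 of the 23 Thbd UMIs. Ly6a stood at 4480.4 CPM, 75% of it from 1 barcode.

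Over all 71 members at 96 h, 537 of 4387 genes were at least 2-fold higher (12.2%) and 612 were lower (14%). Over the endothelial-rich members 203 of 5700 genes were higher (3.56%) and 240 lower (4.21%). Over all members 1 of 12 sinusoidal genes was lower (median 0.12), and 5 of 6 pericentral and 4 of 10 periportal genes were higher. Of 13 sinusoidal genes none was higher, and Fcgr2b (ratio 0.411, 0.309 to 0.544), Dnase1l3 (0.484, 0.362 to 0.644) and the cytokine Il1a (0.119, 0.013 to 0.524) were lower, with a median of -0.30 against -0.05 for all genes. The pair held 31% of the UMIs, and without it Il1a alone was lower, Fcgr2b stood at 0.591 (0.443 to 0.782) and Dnase1l3 at 0.704 (0.526 to 0.936) of the adult level, and the list median was 0.09, beside 3.52% higher and 3.07% lower over all genes. The sinusoidal sum was 12902 CPM without the pair and 13320.5 in the adult control. Of 15 vessel genes, Vwf, Gja4, Gja5, Ly6a, Ly6c1 and Cd9 were higher and Ltbp4 (ratio 0.346, 0.219 to 0.536) was lower. At least Vwf and Ly6c1 of these had no UMI in the adult control and could come out only higher. Gja4 had 39 UMIs in 9 members (ratio 3.76, 1.73 to 9.31) and Cd9 35 in 9 (ratio 6.74, 2.41 to 26.1). Without the pair none of 12 vessel genes was higher and Ednrb and Ltbp4 were lower, with Gja4 at 1.54 (0.565 to 4.41) and Cd9 at 3.08 (0.913 to 13.3) of the adult level. Of 6 pericentral genes, Fabp4 (ratio 2.04, 1.42 to 2.98) and the junction protein Jup were higher. Jup had 7 UMIs in 5 barcodes and 0 in the adult control, so it could come out only higher. Of 10 periportal genes, Gja4 and the adhesion receptor Adgrg6 were higher and Ltbp4 and Ntn4 (ratio 0.371, 0.226 to 0.598) lower. Adgrg6 had 37 UMIs in 3 barcodes, 48.6% of them in 1. Without the pair the pericentral genes past the limits were Kit (4.11, 1.09 to 22.9) and Fabp4 (2.21 (1.51 to 3.29), though 1.74 in the full set without 1 barcode), higher, and Thbd (0.112, 0.00258 to 0.788), lower, and the periportal ones were Ltbp4 and Ntn4, both lower. Among flow-responsive genes Klf4 (ratio 5.39, 1.61 to 28.2) and Adam15 (4.37, 1.26 to 23.3) were higher and Nfe2l2, the regulator of oxidant defence, was lower (0.33, 0.104 to 0.915), and none of these passed without the pair, at 1.87 (0.363 to 12), 1.87 (0.363 to 12) and 0.4 (0.113 to 1.18). Among 14 angiocrine factors Igfbp5 and Edn1 were higher, and Igfbp7 (ratio 0.319, 0.253 to 0.401), Tgfb1 (0.324, 0.123 to 0.776) and Il33 were lower, of which Igfbp7 (0.435, 0.342 to 0.548) and Tgfb1 (0.354, 0.116 to 0.922) still passed without the pair. Igfbp5 and Edn1 had no UMI in the adult control and could come out only higher. Hgf stood at 143 CPM, with a ratio of 1.7 (0.543 to 6.22) whose interval includes 1. The matrix genes that were higher at 24 h were at ratios of 1.63 (1 to 2.71) for Col4a1, 1.07 (0.494 to 2.37) for Col4a2, 1.43 (0.531 to 4.24) for Mmp14 and 0.44 (0.0945 to 1.73) for Adamts1, none past the limit, while Lama4 and Fn1 were lower, and without the pair Fn1 and Timp3 (0.438, 0.286 to 0.658). The caveolar coat protein Cavin1 had 21 UMIs in 10 members against 1 (ratio 16.2, 2.6 to 669), and the membrane protein Anxa2 37 against 3 (9.5, 3.01 to 48.2), and both passed without the pair too, at 11.2 (1.59 to 486) and 7.47 (2.22 to 39.3), as did Notch1 (3.08, 1.55 to 6.55) and Ets1 (2.56, 1.57 to 4.27).

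The 10 genes furthest above the adult control over all 71 members at 96 h were Igfbp5, Flrt2, Fbln2, Edn1, Nrg1, Vwf, Mki67, Fam198b, Top2a and Cavin1. Fam198b had 15 UMIs in 2 endothelial-rich barcodes, and Flrt2 59 in 4. The 10 furthest below were Cyp26b1, Asb7, Zfp655, Mfsd6, Iffo2, Slc39a10, Rnd3, Plxnb1, Nav2 and Gse1. Cyp26b1, which degrades retinoic acid, had 0 UMIs in endothelial-rich members at 96 h against 17 in 5 adult members, at least 7.35-fold lower. The other 9 rested on 9 to 13 UMIs in all adult members and on 0 at 96 h.

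In P14, members without a Wnt UMI had more Tfpi, Mcam and collagen IV RNA than the adult control and less Timp3, Ly6a, Cyp4b1, Ltbp4 and Ntn4 RNA. Lyve1, a hyaluronan receptor, stood at 921 CPM in P14 (34 UMIs) and 389 in the adult control (23), and 266 (24), 458 (10) and 339 (26) at 24, 48 and 96 h, with a ratio of 2.37 (1.35 to 4.21) in P14, or 1.76, under the limits, without the 1 barcode holding most of its UMIs. Timp3, an inhibitor of matrix proteases, stood at 189.6 CPM in P14 (7 UMIs) and 1471 in the adult control (87), and 954 (86), 595 (13) and 1107 (85) at 24, 48 and 96 h, with a ratio of 0.129 (0.0503 to 0.277) in P14, the lowest level of the 5. Cyp4b1, a cytochrome P450, stood at 108 CPM in P14 (4 UMIs) and 794 in the adult control (47), and 222 (20), 229 (5) and 247 (19) at 24, 48 and 96 h, highest in the adult control, with ratios of 0.136 (0.0357 to 0.373), 0.279 (0.157 to 0.48), 0.288 (0.0894 to 0.721) and 0.311 (0.173 to 0.541) in P14 and at 24, 48 and 96 h. Cyp4b1 and Ltbp4 were at least 2-fold below the adult control in all 4 comparisons, which share that library.

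Over all 23 members of P14, 1484 of 5036 genes were at least 2-fold higher (29.5%) and 1450 were lower (28.8%), but 76.2% of the UMIs came from 2 barcodes. Over all members 5 of 13 sinusoidal and 7 of 7 periportal genes were lower. Over the 19 endothelial-rich members 232 of 6155 genes were higher (3.77%) and 205 lower (3.33%). Of 13 sinusoidal genes Lyve1 was higher and none was lower (median 0.06 against 0.08 for all genes). Of 9 periportal genes none was higher, and Msr1, Ltbp4, Ntn4, Efnb1 and Sox17 were lower, at ratios of 0.401 (0.148 to 0.938), 0.418 (0.234 to 0.71), 0.229 (0.0942 to 0.483), 0.308 (0.0924 to 0.815) and 0.283 (0.0531 to 0.977) (list median -1.70). Without the adult barcode holding most of each gene's UMIs, Ltbp4 and Ntn4 still passed and Msr1, Efnb1 and Sox17 did not, at 0.428, 0.428 and 0.4. None of 8 pericentral genes passed either limit. Of 15 matrix genes, Col4a1 (ratio 2.53, 1.51 to 4.3), Col4a2 (2.96, 1.45 to 6.32), nidogen (Nid1, 2.3, 1.16 to 4.66) and Mmp14 (3.66, 1.43 to 10.5) were higher and Timp3 was lower, with Nid1 at 1.88, under the limits, without 1 barcode. Stellate cell and mesenchymal markers summed to 542, 219.8, 410.4, 595 and 221 CPM, against 25.6 in the free RNA of P14, with 6 of 12 at 0 in P14, among them Reln, Pdgfrb, Col1a1 and Col3a1. Of their 20 UMIs there, 7 were of Hgf, 6 of Dcn, all in 1 barcode, and 1 of Lrat, and their part in the matrix values was not tested. Tfpi, an inhibitor of coagulation, stood at 704 against 237 CPM (2.98, 1.5 to 6.16), and the adhesion molecule Mcam at 649.9 against 203 (3.2, 1.54 to 7.03). No angiocrine factor of 12 passed either limit, and of the bone morphogenetic protein responses Id2, Id3 (0.481, 0.251 to 0.87), Smad6 and Ltbp4 were lower, Id2 and Id3 not without 1 adult barcode each.

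Of the 10 genes furthest above the adult control over all 23 members of P14, 9 had at least 95.5% of their UMIs in a single barcode: Thbs1, Pf4, Nrgn, Slc2a3, Prkar2b, Gp5, Tmem40, Slc6a4 and Itga2b. Thbs1 had 763 UMIs in 1 barcode and 0 in endothelial-rich members, and Pf4, a platelet chemokine, 472 and 0. The tenth, Xist, the RNA that silences one X chromosome in females, had 126 UMIs in 11 endothelial-rich members (3412 CPM, 140.3 in free RNA) and 0 in the other 4 libraries. The Y-linked genes Ddx3y and Eif2s3y had 0 UMIs in P14 and 10 and 9 in the adult control, with 17, 4 and 12 UMIs of Ddx3y at 24 h, 48 h and 96 h. The sex of the mice is not in the labels, and age and these sex-linked differences cannot be told apart in the P14 comparison. The 10 furthest below were Ly6a, Tcn2, Dio1, Timp3, Tns1, Ifi207, Tgm2, Cyp4b1, S1pr1 and Sh3bp5. Tcn2, the transcobalamin that carries cobalamin, stood at 81.2 against 727 CPM (0.112, 0.0222 to 0.349), and the sphingosine receptor S1pr1 at 54.2 against 287 (0.188, 0.0211 to 0.794), a call lost without 1 adult barcode.

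**Figure D4:**
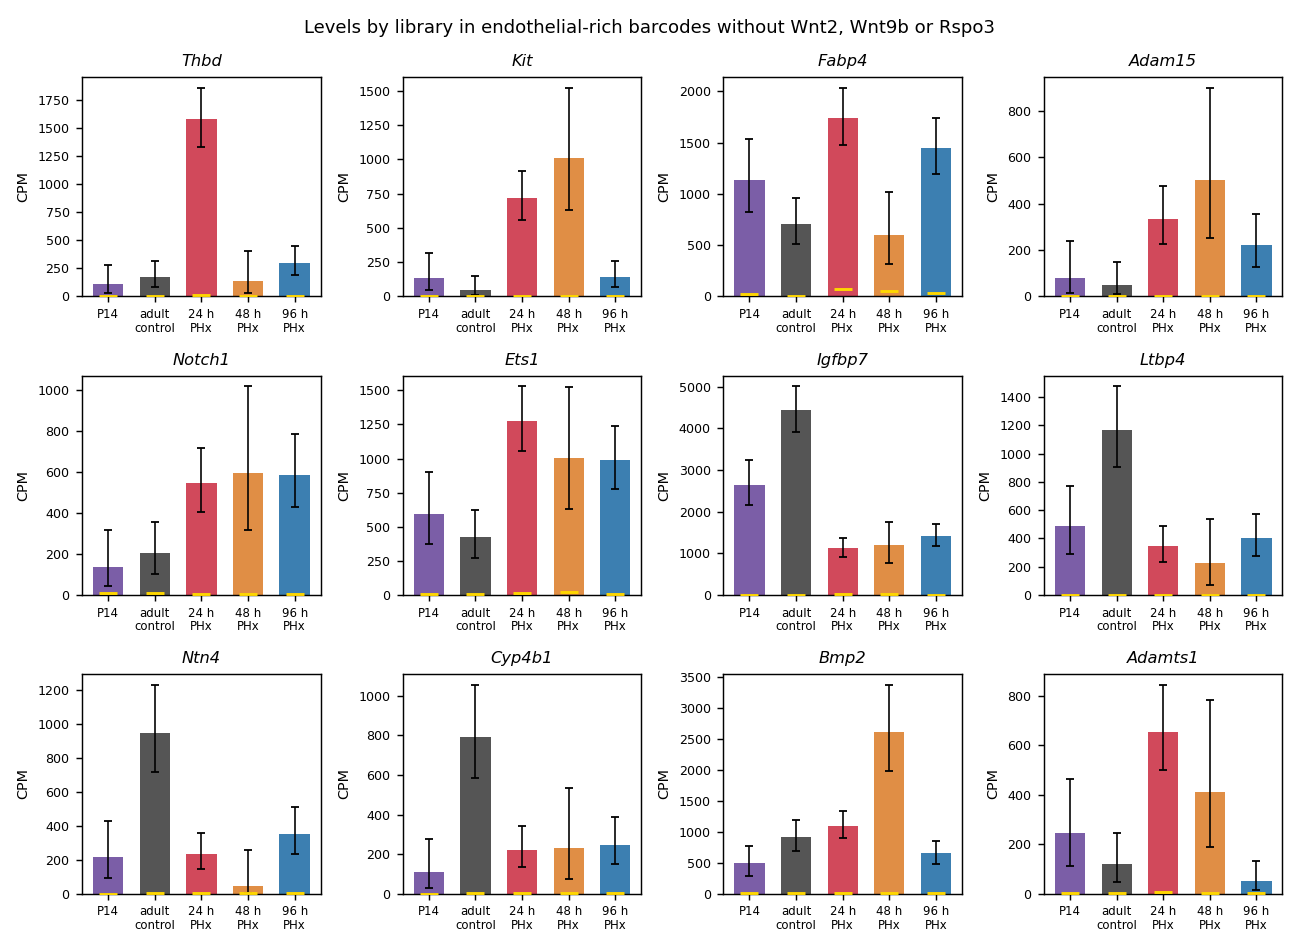
Levels in CPM of 12 listed genes in the endothelial-rich members of each library. Bars are summed levels, error bars 95% counting intervals, and yellow dashes free RNA. Thbd is highest at 24 h (1575 CPM), Kit and Bmp2 at 48 h (1007 and 2609), and Igfbp7, Ltbp4, Ntn4 and Cyp4b1 in the adult control (4446, 1166, 947 and 794).

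Cell division genes were read as the share of barcodes with UMIs of at least 2 different listed genes after each barcode was thinned at random to 1000 UMIs. Mitosis-positive members numbered 5 of 23 (21.7%, 7.46 to 43.7) in P14 and 1 of 62 (1.61%, 0.0408 to 8.66) in the adult control, and 1 of 97 (1.03%, 0.0261 to 5.61), 6 of 24 (25%, 9.77 to 46.7) and 10 of 71 (14.1%, 6.97 to 24.4) at 24, 48 and 96 h. Among endothelial-rich members the numbers were 3 of 19 (15.8%, 3.38 to 39.6) in P14, 0 of 15 in the adult control, which allows a share of up to 20% by 3 counts or 21.8% by the exact interval, 0 of 46 at 24 h, which allows up to 6.52% or 7.71%, and then 1 of 12 (8.33%, 0.211 to 38.5) and 4 of 25 (16%, 4.54 to 36.1) at 48 and 96 h. In P14 the count was 1 of 18 (5.56%) in the setting without the deepest endothelial-rich barcode. That fall is larger than leaving out 1 barcode can give, so the random thinning also changes these small counts. Without thinning, where depths differ and no order is read, they numbered 4 of 19, 0 of 15, 1 of 46, 4 of 12 and 5 of 25, that is 33.3% at 48 h. Mitosis genes summed to 1462, 33.8, 88.7, 732 and 1172 CPM, against 362, 24.5, 341, 1027 and 149 in free RNA. In P14 and at 96 h the members lay above free RNA, and at 24 h and 48 h below it. These free-RNA levels are undiluted. Hepatocyte markers in the members stood at 27% and 19.3% of their free-RNA level at 24 and 48 h. A sum below free RNA is thus not shown to come from it, and the part of free RNA was not tested. The proliferation antigen Mki67 had 11 UMIs in 3 members of P14 and 14 in 5 at 96 h, and 0 in the other 3 libraries. Of 9 mitosis genes tested at 96 h, Mki67, Top2a, Ccnb2 and Cenpe were higher than in the adult control, and of 9 in P14, Mki67, Top2a, Cenpf, Kif23 and Prc1. The whole list summed to 33.8 CPM in the adult control, so no gene of it reached 50 CPM there. Each was tested only through the other library and could come out only higher. The counts are therefore a description and are not read against the 3.56% and 3.77% of all genes. Without the pair more of the list reached 50 CPM at 96 h, and 6 of 16 were higher, Nusap1 and Tpx2 as well, with the same limit. All 4 of the first 96 h count rested on 3 or 4 UMIs without the barcode that held most of each gene's UMIs, and none passed. In P14 Mki67 and Top2a still passed in that way, and Cenpf, Kif23 and Prc1 were left with 1, 2 and 1 UMIs. Replication-positive endothelial-rich members numbered 5 of 19 in P14 and 0 of 15 in the adult control, and 6 of 46, 2 of 12 and 4 of 25 at 24, 48 and 96 h. Without thinning they numbered 7 of 19, 7 of 15, 13 of 46, 3 of 12 and 10 of 25, with the adult control at 46.7%, so the 0 there held only at the thinned depth. Replication genes summed to 643 CPM at 24 h, beside 963 CPM in undiluted free RNA, with the same limit.

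**Figure D5:**
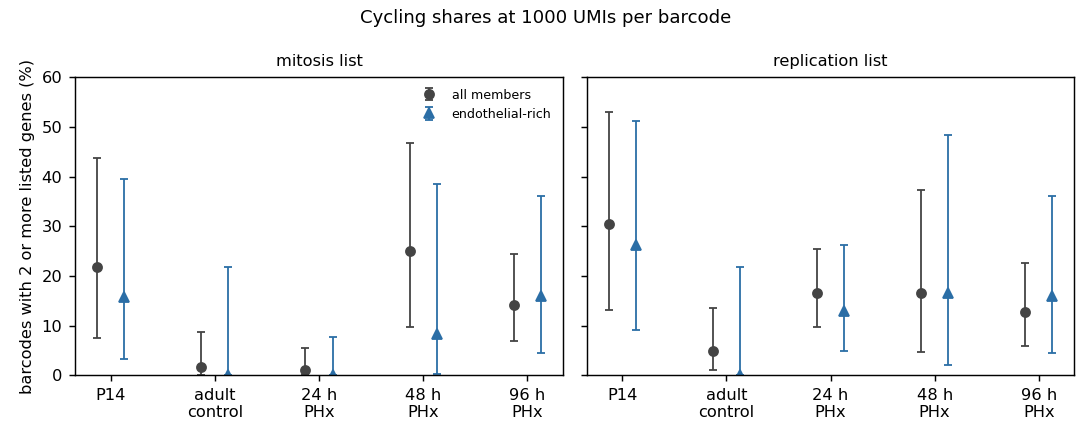
Share of barcodes (%) with at least 2 mitosis genes (left) or replication genes (right) at 1000 UMIs per barcode, by library. Grey circles are all members, blue triangles endothelial-rich members, and bars 95% exact binomial intervals. Endothelial-rich members reach 15.8% and 16% for mitosis in P14 and at 96 h and are at 0 in the adult control and at 24 h.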

How the data were processed

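Droplet libraries of mouse liver cells, 1 per group, were analysed from the raw UMI count matrices that the authors deposited, and software version 3.0.2 is given per the file headers, and bcl2fastq 2.17.1.14, Cell Ranger, Seurat 3.1 and build mm10 per the submitters' processing notes. All 6794880 barcodes of each matrix are listed, so the limits on depth and genes were applied here. The 13 mitochondrial genes were left out of CPM. With 1 library per group no test was made: counts of member barcodes were summed, a gene was counted as higher or lower when 2-fold apart on log2(CPM + 10) among genes of at least 50 CPM in 1 of the libraries compared, and ratios carry 95% exact conditional intervals. In endothelial-rich members the interval also had to exclude 1. Where 1 library had no UMI, the bound used 3 counts over the summed members. Genes named per comparison were the 10 highest and 10 lowest log2 ratios over all members among genes at 2 or more times free RNA in the library where they were higher, without the rule genes. The members and gene lists were chosen with earlier results of these data known. No doublet caller was run, and members with 3 or more markers of another class were left out as an alternative, hepatocytes excepted because the members held their markers throughout, as free RNA does. Scripts used Python 3.11.15, numpy 2.4.6, pandas 2.3.3, scipy 1.17.1, matplotlib 3.10.9 and R 4.3.3 with edgeR 4.0.16 (TMM factors only), and were tested on simulated data. Limits on UMIs, mitochondrial share, markers, albumin and CPM, the pseudocount, TMM, equal weight per barcode and subtraction of free RNA were varied.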

Additional observations from a re-analysis of the deposited data

How the results depend on the processing

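No paired analysis was possible because each group is 1 library, which also leaves no replicate to omit. Of 180 alternative values of the counts of higher and lower genes and the cycling shares, 95 stayed within the bounds set (1.5 times for counts, the counting interval for shares) and 85 did not. Of 1163 alternative log2 ratios of named genes, 1010 stayed close, 146 moved and 7 changed sign. The 3 settings on endothelial-rich members were chosen after seeing the data, and their counts here apply the 2-fold limit alone. The cause of these differences was not tested. Without members carrying 3 or more markers of another class, mitosis-positive shares were 5% (P14) and 0% (24 h), and higher genes numbered 567 (24 h) and 1579 (48 h). The P14 count was 1 of 20 there against 5 of 23, a larger fall than the barcodes left out can give, so the thinning draw also differed. In endothelial-rich members without the deepest of each library, mitosis-positive shares were 5.56% (P14), 0% (adult control), 0% (24 h) and 9.09% (48 h), and replication-positive shares were 0% (adult control), and higher genes numbered 1012 (24 h), 2373 (48 h) and 852 (96 h), and lower genes numbered 987 (24 h), 1592 (48 h) and 1043 (96 h). In endothelial-rich members without the vessel-gene barcodes, higher genes numbered 895 (24 h), 1355 (48 h) and 1008 (96 h), and lower genes numbered 1103 (24 h), 1498 (48 h) and 1252 (96 h). With at least 3 listed genes required, mitosis-positive shares were 0% (adult control) and 0% (24 h), and replication-positive shares were 6.19% (24 h) and 1.41% (96 h). At 2000 UMIs per barcode, mitosis-positive shares were 0% (adult control) and 29.2% (96 h), and replication-positive shares were 39.4% (24 h) and 42.9% (48 h). In endothelial-rich members, mitosis-positive shares were 0% (adult control), 0% (24 h) and 8.33% (48 h), and replication-positive shares were 0% (adult control), and higher genes numbered 978 (24 h), 1355 (48 h) and 1022 (96 h), and lower genes numbered 1022 (24 h), 1498 (48 h) and 1148 (96 h). Without thinning, mitosis-positive shares were 8.25% (24 h) and 50% (48 h), and replication-positive shares were 21% (adult control), 41.2% (24 h), 45.8% (48 h) and 26.8% (96 h). With a minimum of 2000 UMIs, lower genes numbered 716 (24 h). Under 15% mitochondrial UMIs, higher genes numbered 787 (24 h) and 534 (48 h). With at least 4 of the 7 rule genes, higher genes numbered 382 (48 h). With albumin under 1%, higher genes numbered 857 (24 h), 728 (48 h) and 829 (96 h), and lower genes numbered 1069 (24 h), 1859 (48 h), 1418 (96 h) and 2418 (P14). Under TMM, higher genes numbered 572 (48 h), and lower genes numbered 302 (24 h) and 469 (48 h). From 20 CPM, higher genes numbered 654 (24 h), 483 (48 h) and 995 (96 h), and lower genes numbered 886 (24 h), 1587 (48 h), 1106 (96 h) and 2185 (P14). From 100 CPM, higher genes numbered 182 (24 h), 164 (48 h), 286 (96 h) and 935 (P14), and lower genes numbered 266 (24 h), 458 (48 h), 353 (96 h) and 871 (P14). With equal weight per barcode, higher genes numbered 836 (24 h) and 1134 (48 h). With free RNA subtracted, higher genes numbered 1320 (24 h), 1040 (48 h) and 1356 (96 h), and lower genes numbered 1994 (24 h), 2713 (48 h), 1401 (96 h) and 2289 (P14). With mitochondrial UMIs in the total, higher genes numbered 213 (24 h) and 153 (48 h). The log2 ratio of Thbs1 in P14 turned to -0.81 with at least 4 rule genes, -0.93 without members of another class, -1.43 in endothelial-rich members, with or without the vessel-gene barcodes, and -1.52 in those without the deepest, since the 1 barcode that held it was left out. Hba-a2 at 48 h turned to -0.13 without members of another class, which leaves out the erythroid-gene barcode, and Orm2 at 48 h to -1.52 in endothelial-rich members without the deepest. At 45.8 CPM per UMI the 48 h library limits low genes most.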

Other observations

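The class I heavy chain H2-D1 stood at 921 CPM in P14 and 2096 in the adult control, and 1043, 778 and 964 at 24, 48 and 96 h, with ratios of 0.439 (0.291 to 0.646), 0.497 (0.376 to 0.656), 0.371 (0.21 to 0.619) and 0.46 (0.34 to 0.618) in P14 and at 24, 48 and 96 h. It passed the limits in all 4 comparisons, which share the adult control, and its free-RNA level there was 394 CPM. Without the vessel-gene barcodes its ratio was 0.512 (0.384 to 0.678) at 24 h, not past the 2-fold limit, and 0.461 (0.326 to 0.644) at 96 h, and without the adult barcode holding most of its UMIs it was 0.539 and 0.498, not past the limits. Of 7 antigen presentation genes tested none was higher in any comparison, and the lower genes numbered 3 in P14 and 2, 1 and 2 at 24, 48 and 96 h, beside 3.33%, 5.24%, 2.3% and 4.21% of all genes, and 0 at 24 h and 2 at 96 h without the vessel-gene barcodes.

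Of 10 caveolar and lipid handling genes tested, 1 was lower and none higher in P14, 2 were higher and 3 lower at 24 h, and 2 were higher and 2 lower at 96 h, and of 9 tested at 48 h, 3 were lower and none higher. Over all genes the higher and lower shares were 3.77% and 3.33% in P14, 4.47% and 5.24% at 24 h, 4.16% and 2.3% at 48 h, and 3.56% and 4.21% at 96 h, and without the vessel-gene barcode the 24 h lipid count was 1 higher, Cavin1, as Fabp4 no longer passed. Gpihbp1, the capillary anchor of lipoprotein lipase, stood at 1652 CPM in P14 (61 UMIs) and 2045 in the adult control (121), and 943 (85), 1099 (24) and 651 (50) at 24, 48 and 96 h, at ratios of 0.461 (0.345 to 0.613) and 0.318 (0.224 to 0.446) at 24 and 96 h, the former 0.509, under the limit, without 1 adult barcode. The fatty acid transporter Cd36 stood at 677 CPM in P14 and 1133 in the adult control, and 643, 504 and 1419.7 at 24, 48 and 96 h, highest at 96 h and lowest at 48 h (ratio 0.445, 0.212 to 0.847). Among single genes of other lists, the vascular endothelial growth factor co-receptor Nrp1 stood at 1056 CPM in P14 and 1065 in the adult control, and 455, 412 and 573 at 24, 48 and 96 h, lower at 24 h (ratio 0.427, 0.281 to 0.643) and 48 h (0.387, 0.169 to 0.782), and the secreted semaphorin Sema3f was higher at both times (3.58 (1.86 to 7.55) and 2.71 (1.06 to 6.89), the latter 1.86, under the limits, without 1 barcode). The tight junction protein Cldn5 stood at 352 CPM in P14 and 862 in the adult control, and 311, 412 and 417 at 24, 48 and 96 h and passed the lower limit in all 4 comparisons, again against 1 shared library, but not at 48 h and 96 h without 1 adult barcode (0.517 and 0.523). The chemokine Cxcl16 was lower at 24 h (0.375, 0.168 to 0.798), 96 h (0.44, 0.197 to 0.937) and in P14 (0.153, 0.0173 to 0.624), but not past the limits at 96 h without the vessel-gene pair (0.587, 0.256 to 1.27).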
